A study of Mus musculus with 16 samples.

Results

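GFP+ cells were set against GFP- cells of the olfactory mucosa of mice held in clean air without odour. The comparison used 8 of the 16 arrays of the series, chosen by their sample labels: 4 arrays of GFP+ cells and 4 arrays of GFP- cells, paired by replicate number. All mice were S100a5-tauGFP mice of both sexes, 7 to 12 weeks old, which make a tau-tagged green fluorescent protein, GFP, controlled by S100a5, a calcium-binding protein gene. Reporter copy number and strain background were not given in the sources used here. Each mouse was housed singly for 40 h with an air flow of 3.1 L per min, and from 26 h on the vehicle mice received filtered air for 10 s every 20 min. Cells of the dissociated mucosa were sorted by fluorescence, and mRNA was measured on Clariom S mouse arrays from 50 to 100 ng of total RNA. The 24 mice of the series make 8 pools of 3, so the GFP+ and GFP- arrays of a replicate number were taken to come from the same pool of 3 mice. The other 8 arrays are the same fractions of 4 pools given cigarette smoke odour, and here they add to the estimate of the spread and to a side-by-side view at the end.

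The olfactory mucosa holds mature olfactory sensory neurons, most of which express a single odorant receptor gene, together with immature neurons, basal stem cells, supporting cells, glands and blood-borne cells. S100a5 encodes a small EF-hand protein of mature olfactory neurons, and its mRNA is known to rise with sensory activity. A gate on the reporter therefore divides neurons by the recent activity of S100a5, and the negative gate collects every other cell of the suspension. In sorted bulk samples of this kind, fewer cells of a type and less RNA per cell cannot be told apart.

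The deposited values were on a log2 scale, and all differences below are GFP+ minus GFP- in log2 units unless a fold is named. The array medians ranged over 7.89 to 7.95 for the GFP+ fraction and over 8.24 to 8.26 for the GFP- fraction. Arrays correlated across genes at 0.992 to 0.995 within a fraction and at 0.932 to 0.953 between fractions. The median difference over 19505 genes was 0.17, and differences are best read against that value. The 95th percentile of the vomeronasal receptors, genes of another sensory organ, served as a floor and is called the vomeronasal level. It was 6.46 in GFP+ cells and 6.19 in GFP- cells, and a gene whose mean in a fraction did not exceed it has only a bound there. In 190 genes at least 1 fraction averaged above 16, which is more than a 16-bit scanner can record on this scale, so the top of the range may be stretched. The sizes of differences in those genes are therefore uncertain. Replicates were pools of mice, and p-values measure the spread of the difference between pools; the number of arrays limits the precision.

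S100a5 was higher in GFP+ cells of every pool. It measured 16.39, 16.51, 16.44 and 16.49 in GFP+ cells of pools 1 to 4, against 14.91, 15.29, 15.47 and 15.31 in GFP- cells. The fractions did not overlap, and S100a5 mRNA was far above the vomeronasal level in the negative fraction too. The mean difference was 1.21 (SE 0.11, 2.32-fold, limma adjusted p = 1.60e-05). The exact two-sided permutation p, with signs swapped within pools, was 0.13, the smallest that 4 pools can give. All GFP+ values of S100a5 lay above 16, so the size of its difference is uncertain.

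Pcp4l1, a relative of the calmodulin-binding protein PEP-19 and a further gene known to rise with olfactory activity, measured 15.04, 14.97, 14.74 and 14.49 in GFP+ cells, against 12.98, 13.13, 13.22 and 12.91 in GFP- cells. Every GFP+ value exceeded every GFP- value, by 1.75 on average (SE 0.16, 3.36-fold, adjusted p = 1.63e-05). Omp, the olfactory marker protein of mature neurons, measured 18.22, 18.24, 18.20 and 18.27 in GFP+ cells, against 18.19, 18.18, 18.12 and 18.06 in GFP- cells. Its difference of 0.10 did not pass (SE 0.09, adjusted p = 0.432). The Omp difference was -0.04 after quantile normalization and -0.21 with arrays shifted to a common vomeronasal median. With arrays centred on their gene median it was 0.44 and passed (limma adjusted p = 0.00211). Omp lay near the top of the scale in both fractions, so a probe set close to saturation cannot show that its mRNA was equal.

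Calb2, which encodes the calcium buffer calretinin, went the other way. It measured 12.84, 13.07, 13.10 and 13.22 in GFP+ cells, against 16.29, 16.25, 16.16 and 16.34 in GFP- cells, a difference of -3.20 (SE 0.11, adjusted p = 2.79e-08) or 9.20-fold lower. S100a8, a subunit of the neutrophil alarm protein calprotectin, measured 7.45, 7.91, 8.73 and 9.44 in GFP+ cells, against 16.09, 16.12, 16.65 and 16.93 in GFP- cells. This difference of -8.06 (SE 0.16, adjusted p = 1.11e-09) was a 268-fold lower level in GFP+ cells. All GFP- values of Calb2 and S100a8 lay above 16, so the sizes of their differences are uncertain too. S100a8 and S100a5 belong to the same gene cluster, and they marked opposite fractions.

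**Figure D1:**
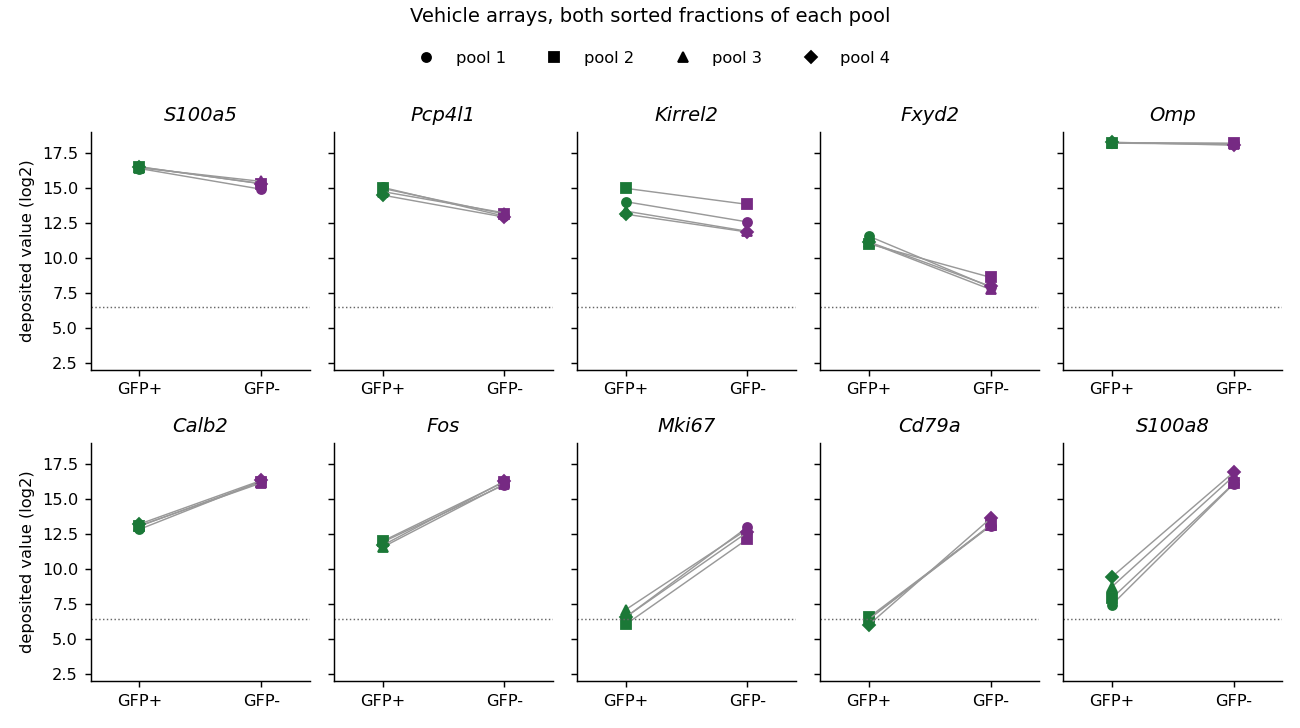
Deposited log2 value of 10 genes on the 8 vehicle arrays, with GFP+ cells at the left and GFP- cells at the right of each panel; lines join the fractions of a pool, and the dotted line is the vomeronasal level of GFP+ cells. S100a5, Pcp4l1, Kirrel2 and Fxyd2 were higher in GFP+ cells of every pool, Omp lay near 18 in both fractions, and Calb2, Fos, Mki67, Cd79a and S100a8 were higher in GFP- cells of every pool.

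The 250 bases upstream of the start sites of S100a5, Pcp4l1 and S100a8 are shown because the first gene drives the reporter, the second moved with it and the neighbour S100a8 moved far against it. The sequences are from RefSeq (GRCm38.p6), and capitals mark any match to the 4 motifs searched on both strands.
S100a5, chr3:90608272-90608521, plus strand: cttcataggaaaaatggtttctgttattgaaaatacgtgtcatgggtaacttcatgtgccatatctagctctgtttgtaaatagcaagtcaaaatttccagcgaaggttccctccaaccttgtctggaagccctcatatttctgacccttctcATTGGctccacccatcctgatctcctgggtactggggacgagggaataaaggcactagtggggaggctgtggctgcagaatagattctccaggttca
Pcp4l1, chr1:171196269-171196518, minus strand: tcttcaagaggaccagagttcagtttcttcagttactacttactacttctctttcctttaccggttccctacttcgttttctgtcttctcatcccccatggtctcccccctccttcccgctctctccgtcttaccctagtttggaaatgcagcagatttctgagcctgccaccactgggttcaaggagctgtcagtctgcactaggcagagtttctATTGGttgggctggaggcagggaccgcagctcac
S100a8, chr3:90668821-90669070, plus strand: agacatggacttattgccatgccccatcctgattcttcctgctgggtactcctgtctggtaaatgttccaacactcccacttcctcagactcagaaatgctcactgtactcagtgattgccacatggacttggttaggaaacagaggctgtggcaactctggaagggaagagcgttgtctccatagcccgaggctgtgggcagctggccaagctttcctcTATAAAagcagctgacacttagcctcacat
The motifs were the cAMP response element TGACGTCA, its half-site TGACG (which the full element contains), the CCAAT box and the TATA box as TATAAA. S100a5 and Pcp4l1 each held a CCAAT box on the strand opposite to the one printed, and S100a8 held a TATA box. No window of the 3 held the cAMP element or its half-site. A CCAAT box occurred in 33.8% of all promoter windows in the table, TATAAA in 12.4%, the half-site in 17.8% and the full cAMP element in 1.55%.

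At an adjusted p of at most 0.05, 4873 genes (25%) were higher and 3048 (15.6%) lower in GFP+ cells, and 9621 had an unadjusted p below 0.05. Without pool 4, 3196 were higher. The split depended on the scaling: with arrays centred on their gene median 12992 were higher and 2286 lower, and with arrays shifted to a common vomeronasal median 1209 were higher and 4730 lower. Because so many small differences passed, a stricter rule adds a difference of at least 1, and it called 661 genes (3.39%) higher and 1863 (9.55%) lower. This split too followed the scaling, with 1713 higher and 1492 lower in centred arrays and 458 higher and 2379 lower in arrays shifted to a common vomeronasal median. Counts below that are given as 2-fold use the stricter rule; all others rest on the adjusted p alone and are to be read against the 25% and 15.6% of all genes. Of the 661 higher genes, 485 were odorant receptors and 169 were no chemoreceptor of any family. Of the 1863 lower genes, 191 were odorant receptors and 1669 no chemoreceptor. Among genes that are no chemoreceptor, 2 were higher by 4-fold or more and 902 lower by that much, and 288 were lower by 16-fold or more. A total of 124 such genes had a mean above the vomeronasal level in GFP+ cells only, and 1198 in GFP- cells only.

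**Figure D2:**
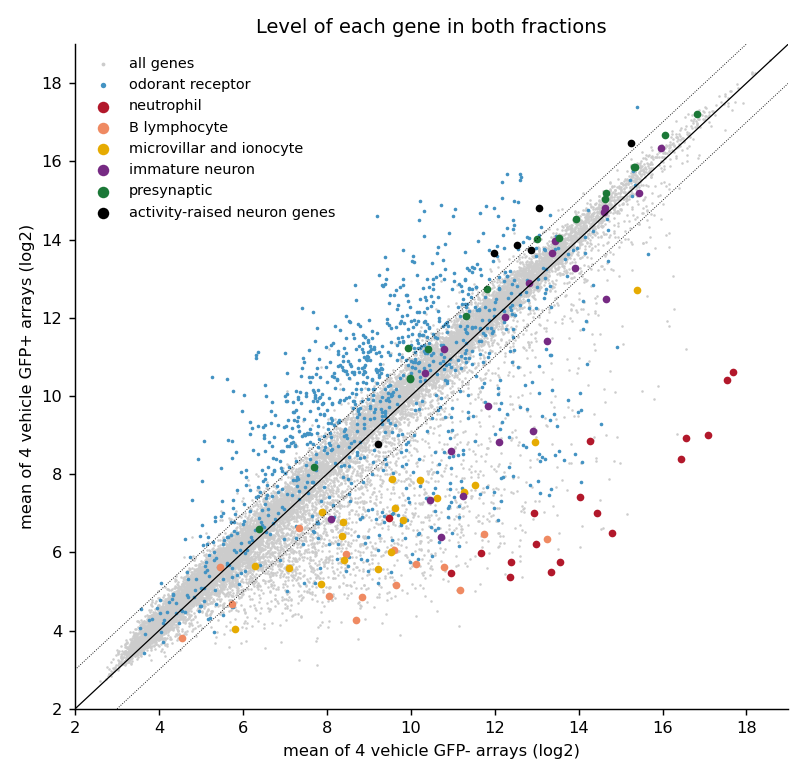
Mean log2 level of each gene over the 4 GFP+ arrays (vertical) against the 4 GFP- arrays (horizontal); the solid line marks equal values and the dotted lines 2-fold. Neutrophil, B lymphocyte and microvillar genes lie far below the line, presynaptic genes just above it, and odorant receptors on both sides.

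The largest rise outside the receptor families was that of Fxyd2, which encodes a regulatory subunit of the sodium-potassium pump. It measured 11.55, 11.001, 11.11 and 11.14 in GFP+ cells, against 7.91, 8.60, 7.74 and 7.96 in GFP- cells. Its fractions were well apart, by 3.15 (SE 0.19, 8.86-fold, adjusted p = 6.78e-07). Ptprn, a phosphatase-like protein of dense-core vesicles, was higher by 2.00 (SE 0.15, adjusted p = 3.94e-06) and was the only other such gene past 4-fold. Caly, an endocytic vesicle protein of neurons, was higher by 1.92, and the RFX-family transcription factor Rfx4 by 1.89 (SE 0.16 and 0.13). The protocadherins Pcdh10 and Pcdh7 were higher by 1.86 and 1.73, the heparan sulfate sulfotransferase gene Hs3st1 by 1.72, the secreted neuronal protein gene Nell2 by 1.70 and the amino acid transporter gene Slc7a8 by 1.64. Frem2, a basement membrane protein gene, and the orphan receptor gene Gpr135 were at the vomeronasal level in GFP- cells and higher by at least 1.54 and 1.32. Glyat passed with 1.62, but its means lay at the vomeronasal level in both fractions. These genes were named only among those with the same sign in 4 of 4 pools and no overlap between fractions. That agreement is therefore a condition of the naming and no further result. Of all genes, 23.8% were higher without overlap.

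Genes known to follow olfactory activity were compared next. Of 6 genes described as raised by activity, 5 were higher in GFP+ cells, 4 of them by 2-fold, and the list's median difference was 1.27. Besides S100a5 and Pcp4l1 these were Lrrc3b, a leucine-rich repeat membrane protein gene (1.68, SE 0.11), Kirrel2, a homophilic adhesion molecule of olfactory axons (1.33, SE 0.13), and the guidance ligand gene Sema7a (0.84, SE 0.10). Kirrel2 measured 14.02, 14.97, 13.34 and 13.12 in GFP+ cells, against 12.57, 13.82, 11.90 and 11.85 in GFP- cells. Its fractions overlapped across pools, yet within every pool the GFP+ array was higher. The member that did not pass was Rasgrp4 (-0.44, SE 0.27, adjusted p = 0.208). S100a5 drives the gate, so its own count in this list is not independent of the sort. Of the 2 genes described as lowered by activity, Calb2 was lower, and the adhesion molecule gene Kirrel3 differed by -0.02 (SE 0.12, adjusted p = 0.922).

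Among 26 axon sorting and adhesion genes, 15 were higher and 2 lower, with a median of 0.37. Those past 2-fold were Pcdh10, Kirrel2, the ephrin receptor gene Epha5 (1.31, SE 0.15) and the repulsive guidance ligand gene Slit1 (1.16, SE 0.12). Pcdh10 measured 10.37, 10.26, 9.82 and 10.26 in GFP+ cells, against 8.55, 8.91, 8.10 and 7.71 in GFP- cells, so its fractions did not overlap. Epha5 and Slit1 were likewise higher on all 4 GFP+ arrays. The plexin gene Plxnc1 (-0.85, adjusted p = 0.0208) and the semaphorin gene Sema3a (-0.74, adjusted p = 0.0107) were lower. Neither held in every setting: in centred arrays their adjusted p were 0.0866 and 0.0713, and after quantile normalization that of Sema3a was 0.0779. Without pool 3 Plxnc1 had an adjusted p of 0.1000 and without pool 4 of 0.0569.

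Presynaptic genes moved modestly and together. Of 17, 15 were higher, with a median of 0.52, and all 17 differences lay between 0.21 and 1.31. The synaptic vesicle phosphoproteins Syn1 and Syn2 were higher by 1.31 and 1.01 (SE 0.15 and 0.12), and 1 of them passed 2-fold without pool 1 or pool 4. The vesicle proteins Sv2b and Sv2c were higher by 0.92 and 0.80, the SNARE protein gene Snap25 by 0.61, and the dopamine receptor gene Drd2, known to act at olfactory nerve terminals, by 0.51. Snap25 measured 16.60, 16.66, 16.79 and 16.64 in GFP+ cells, against 16.05, 16.30, 15.95 and 15.94 in GFP- cells. The 2 genes that did not pass were the priming factor gene Unc13a (0.47, adjusted p = 0.0575) and the complexin gene Cplx1 (0.21, adjusted p = 0.284).

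Of 25 potassium and related channel genes, 13 were higher and 1 lower, against 25% and 15.6% of all genes, and 3 were higher by 2-fold. Their median was 0.48, and 10 of the 25 were at the vomeronasal level in both fractions. Kcnmb3, an auxiliary subunit of calcium-activated big-conductance channels, measured 14.13, 14.55, 14.16 and 13.88 in GFP+ cells, against 12.37, 13.21, 12.13 and 12.16 in GFP- cells. Its difference was 1.71 (SE 0.13, 3.28-fold, adjusted p = 3.58e-06). The small-conductance calcium-activated channel gene Kcnn2 was higher by 1.27 (SE 0.14). Kcna1, a voltage-gated channel gene at the vomeronasal level in GFP- cells, was higher by at least 1.01. The cyclic nucleotide-gated pacemaker channel gene Hcn2 was higher by 0.81 and the tandem-pore channel gene Kcnk1 lower by 1.53 (SE 0.23).

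The transduction cascade, in which an odorant receptor acts through a G protein, adenylyl cyclase and cyclic nucleotide-gated channels, differed less. Of 17 genes 8 were higher and 2 lower, against 25% and 15.6% of all genes, so the share of lower genes was close to that of all genes. The median was 0.34, and no rise reached 2-fold. Pde1c, the calcium-dependent phosphodiesterase of olfactory cilia, was higher by 0.82 (SE 0.09), the sodium-calcium exchanger gene Slc24a4 by 0.74, the phosphodiesterase gene Pde4a by 0.73 and the chloride channel gene Ano2 by 0.60. The cyclase gene Adcy3 was higher by 0.43 and the channel gene Cnga2 by 0.34, while the G protein gene Gnal differed by 0.23 (adjusted p = 0.0865). The 2 that were lower were Rgs2 and Grk3. Rgs2, a regulator of G protein signalling, measured 6.82, 6.50, 6.37 and 6.01 in GFP+ cells, against 11.61, 11.70, 12.49 and 12.75 in GFP- cells, and was lower by at least 5.58. Grk3, a receptor kinase gene, was lower by at least 0.36. The part of leukocytes, whose gene lists below were also lower, in the Rgs2 and Grk3 differences was not tested. Without pool 3 or pool 4, 5 transduction genes were higher.

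Markers of mature neurons gave 9 of 14 higher, with a median of 0.36 and no difference of 2-fold. Cilia and intraflagellar transport genes gave 17 of 25 higher, with a median of 0.47 and all 25 differences above 0 as deposited. The retrograde motor gene Dync2h1 led them at 0.98 (SE 0.16), followed by the ciliary gate gene Cep290 at 0.67. Receptor choice and trafficking genes had a median of 0.21, close to the 0.17 of all genes, with 6 of 17 higher, among them the receptor transport genes Reep1 (0.61) and Rtp2 (0.55). The 2 that were lower were Cbx5 (-0.55, SE 0.11), which encodes heterochromatin protein 1 alpha, and the lamin B receptor gene Lbr (-2.53, SE 0.23), known to be kept low in mature olfactory neurons. The leukocyte lists described below were lower as well, and their part in the Lbr difference was not tested. Without pool 3 or 4, 2 and 3 genes of this list were higher.

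These modest rises depended on how the arrays were scaled, since a shift of all arrays moves every gene alike. The median over all genes was 0.17 as deposited, 0.51 with arrays centred on their gene median and -0.14 with arrays shifted to a common vomeronasal median. After that last shift 3 transduction genes, 0 mature neuron markers, 4 presynaptic, 2 ciliary, 6 channel and 0 receptor choice genes were higher. Relative to the all-gene median, the presynaptic median was 0.34 to 0.43 over the settings run and the ciliary median 0.25 to 0.35. The channel median was 0.16 to 0.43 and the mature neuron median 0.10 to 0.24. Neither centring, the vomeronasal shift nor a change of the model can alter these relative values. Quantile normalization can, and it gave 0.36 for presynaptic, 0.25 for ciliary, 0.35 for channel and 0.10 for mature neuron genes. The 5 activity-raised genes were higher in every setting run.

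**Figure D3:**
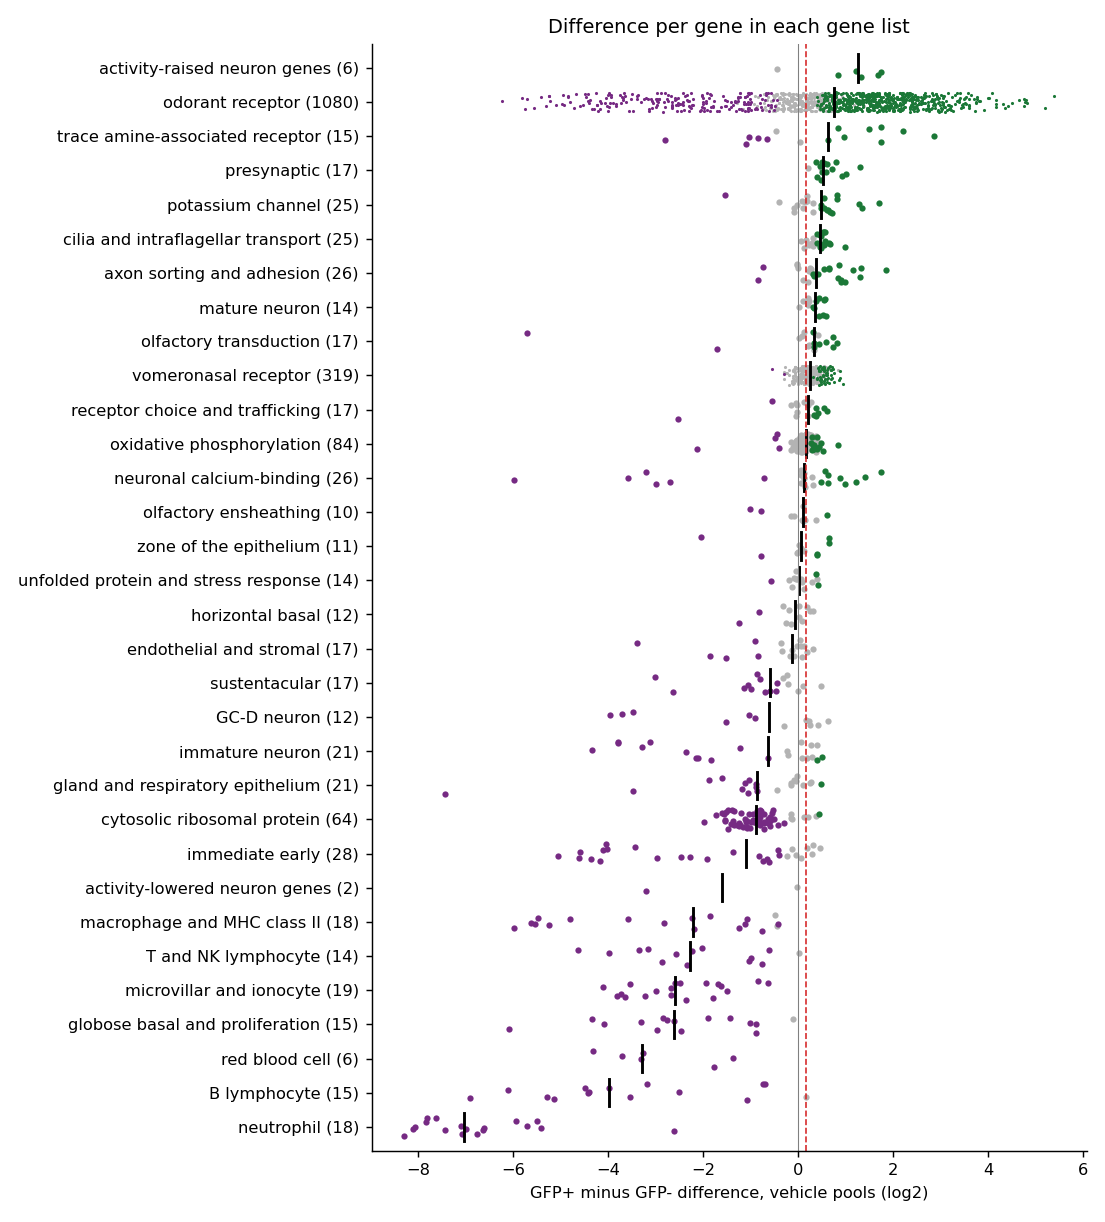
GFP+ minus GFP- difference of each gene in 32 gene lists (number of measured genes in brackets), sorted by list median; green points were higher and purple points lower at an adjusted p of at most 0.05, grey points did not pass, black bars are list medians and the dashed line is the all-gene median of 0.17. Medians of the horizontal basal, endothelial, zone, stress, ensheathing, calcium-binding, receptor choice, oxidative phosphorylation and vomeronasal lists changed sign under another scaling, while leukocyte, progenitor and microvillar lists lay to the left in every setting run.

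The negative fraction carried a strong neutrophil signal. All 18 neutrophil genes were lower in GFP+ cells by more than 2-fold, with a median of -7.03, or -6.75 when genes at the vomeronasal level in GFP+ cells are held at their bound. The list mean was 7.00 to 7.52 on GFP+ arrays and 13.6 to 14.6 on GFP- arrays. Mmp8, the neutrophil collagenase, measured 5.81, 6.06, 6.85 and 7.29 in GFP+ cells, against 14.31, 14.27, 15.19 and 15.44 in GFP- cells, the largest difference of any gene at -8.30 (SE 0.24, 315-fold, adjusted p = 8.43e-09). Retnlg, a resistin-like gene of granulocytes, was lower by 8.10 and S100a9, the partner of S100a8, by 7.63. Camp, the cathelicidin gene, and the gelatinase gene Mmp9 were at the vomeronasal level in GFP+ cells and lower by at least 7.10 and 6.88. Genes of early granulocytes were present too, since the primary granule enzymes Mpo and Elane were lower by 6.62 and 5.94. Of the 18 genes, 11 stayed above the vomeronasal level in GFP+ cells, with Ngp at 9.83 to 11.31 and Lcn2 at 9.87 to 11.10.

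The other falls among the 15 largest outside the receptor families were of Ly6c and further genes, most of them known from blood cells. Ly6c2 and Ly6c1, surface antigens of monocytes and other myeloid cells, were lower by 8.18 and 7.96. The aspartic protease gene Ctse was lower by 7.94, the tetraspanin gene Cd37 by 7.40 and the chitinase-like gene Chil3 by 7.30. The haptoglobin gene Hp, the small GTPase gene Rac2 and the Mas-related receptor gene Mrgpra2b were at the vomeronasal level in GFP+ cells and lower by at least 7.56, 6.97 and 7.07.

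Lymphocyte genes were lower and mostly fell to the vomeronasal level. Of 15 B lymphocyte genes 14 were lower, with a median of -3.98 (-2.39 with bounds). At that level were 11 of the 15 in GFP+ cells only and 3 in both fractions. Cd79a, a signalling chain of the B cell receptor, measured 6.42, 6.54, 6.41 and 6.01 in GFP+ cells, against 13.09, 13.12, 13.17 and 13.62 in GFP- cells, and was lower by at least 6.77. The immunoglobulin joining chain gene Jchain was lower by at least 4.71. Of 14 T and natural killer lymphocyte genes 13 were lower, with a median of -2.28 (-1.42 with bounds). As 4 of the 14 were at the vomeronasal level in both fractions, no difference can be given for those 4. With a filter on low values, 9 of 10 were lower. The interleukin 7 receptor gene Il7r led the list (-4.64, SE 0.22), while Cd4 differed by 0.02. Of 18 macrophage and MHC class II genes 16 were lower, with a median of -2.21. The class II chain gene H2-Aa was lower by 5.98 and the lysozyme gene Lyz2 by 5.63. The complement genes C1qa, C1qb and C1qc, typical of tissue macrophages, differed by -0.42, -0.76 and -0.43, the last with an adjusted p of 0.0674. All 6 red blood cell genes were lower by 2-fold, among them the anion exchanger gene Slc4a1 (-3.71, SE 0.39).

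Progenitor and proliferation genes were far lower in GFP+ cells. Of 15 such genes 14 were lower, 12 by 2-fold, with a median of -2.62 (-1.86 with bounds). The proliferation antigen gene Mki67 measured 6.56, 6.04, 7.09 and 6.57 in GFP+ cells, against 13.001, 12.15, 12.85 and 12.64 in GFP- cells, a difference of -6.10 (SE 0.27, 68.4-fold, adjusted p = 9.96e-08). The ribonucleotide reductase gene Rrm2 was lower by 4.33 and Kit, a receptor of globose basal progenitors, by at least 2.97. Blood precursors divide as well, and the part of the leukocyte signal in the proliferation genes was not tested. The proneural gene Neurog1 lay at the vomeronasal level in both fractions. Of 12 horizontal basal cell genes, 9 were at that level in both, Krt5, Krt14 and Trp63 included, so no difference can be given for those 9. The integrin gene Itga6 was lower by 0.83 (SE 0.16, adjusted p = 0.00262), and the adhesion molecule gene Icam1, at that level in GFP+ cells, by at least 0.25.

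Immature neuron genes split. Of 21, 11 were lower, 10 of them by 2-fold, and 2 were higher. The growth-associated protein gene Gap43 measured 10.02, 9.50, 9.81 and 9.64 in GFP+ cells, against 11.75, 11.73, 12.17 and 11.76 in GFP- cells, a difference of -2.11 (SE 0.14, 4.31-fold, adjusted p = 1.40e-06). The G protein subunit gene Gng8 was lower by 3.80, the collapsin response gene Dpysl3 by 3.29 and the early neuronal transcription factor gene Nhlh1 by at least 4.16. Gnas, the stimulatory G protein that precedes Gnal in development, was lower by 3.80. Not every gene of the list was lower. Dcx, the doublecortin gene, was higher by 0.51 (adjusted p = 0.00547) and Ncam1 by 0.39 (adjusted p = 0.00994), whereas with arrays shifted to a common vomeronasal median their adjusted p were 0.199 and 0.578. Without pool 4, Ncam1 had an adjusted p of 0.0540. Tubb3 and Stmn4 differed by 0.09 and 0.18, without passing.

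All 19 genes of microvillar cells and ionocytes were lower in GFP+ cells, 17 of them by 2-fold, with a median of -2.59. Trpm5, the cation channel of microvillar cells, measured 7.62, 7.58, 7.43 and 6.96 in GFP+ cells, against 10.85, 10.70, 10.58 and 10.40 in GFP- cells (-3.23, SE 0.17, adjusted p = 2.55e-07). The ionocyte genes Foxi1, a forkhead factor, and Cftr, the chloride channel, were lower by 3.82 and 3.73. The list also holds Alox5ap and Ltc4s, leukotriene genes that leukocytes express, lower by 4.12 and 1.62. The fractions did not overlap for 18 of the 19 genes, against 15.1% of all genes lower without overlap.

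Sustentacular cells, which support and detoxify the epithelium, had a list median of -0.60. Of 17 sustentacular genes 11 were lower, 4 of them by 2-fold, and the list mean was 9.98 to 10.3 on GFP+ arrays and 10.7 to 11.04 on GFP- arrays. The cytochrome P450 gene Cyp2g1 measured 15.08, 14.998, 15.14 and 15.36 in GFP+ cells, against 15.90, 15.79, 16.11 and 15.98 in GFP- cells, a difference of -0.81 (SE 0.12, adjusted p = 6.03e-04). It thus stood high on GFP+ arrays as well. The keratin genes Krt18 and Krt8, shared by many epithelia, were lower by 3.01 and 2.64. With arrays shifted to a common vomeronasal median 7 of the 17 were lower by 2-fold.

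Gland and respiratory genes were lower in part, 11 of 21, with list means of 7.59 to 8.46 on GFP+ arrays against 8.67 to 9.83 on GFP- arrays. Obp2a, an odorant-binding protein gene, measured 11.23, 13.26, 14.69 and 15.12 in GFP+ cells, against 12.64, 13.79, 16.26 and 15.80 in GFP- cells. Its fractions overlapped, and pool 1 was lowest in both, but within every pool the GFP+ array was lower (mean -1.05, SE 0.20, adjusted p = 0.00270). The gland transcription factor gene Sox9 was lower by 3.47, and Ltf, also a neutrophil granule gene, by 7.43. By 2-fold, 8 gland genes were lower, 5 when pairing was left out of the model and 4 without pool 3. Of 10 genes of ensheathing glia 1 was higher and 2 were lower, the lowest at -1.02, against 25% and 15.6% of all genes. At the vomeronasal level were 4 of the 10 in both fractions and 3 in GFP+ cells only, so this list was poorly measured. Fabp7, Gfap and S100b differed by 0.61, 0.38 and 0.15, and of these Fabp7 alone passed (adjusted p = 0.0396). Without pool 2 or 4 no ensheathing gene was higher. Of 17 endothelial and stromal genes 5 were lower, among them Rgs5 (-3.39, SE 0.19) and Pecam1 (at least 1.21 lower), and Col1a1, Cldn5 and Vwf did not pass. In this list 7 genes were at the vomeronasal level in both fractions and 5 in GFP+ cells only. Failing to pass is therefore no sign of equal levels.

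Immediate early genes, transcribed within minutes of stimulation in neurons and other cells, were lower in GFP+ cells. Of 28, 20 were lower, 14 by 2-fold, with a median of -1.09. Fos measured 11.92, 11.99, 11.56 and 11.69 in GFP+ cells, against 16.03, 16.23, 16.08 and 16.28 in GFP- cells, a difference of -4.36 (SE 0.18, 20.6-fold, adjusted p = 6.33e-08). Its GFP- values all lay above 16, so the size of this difference is uncertain. Btg2 was lower by 5.06, Junb and Nr4a1 by 4.60 each, and Egr1 by 4.11. Those that did not pass included 3 genes induced mainly in neurons, Npas4 (0.28), Bdnf (0.47) and Homer1 (0.31), of which Npas4 and Bdnf lay at the vomeronasal level in both fractions. The leukocyte lists moved the same way on the same arrays, with neutrophil list means of 7.00 to 7.52 on GFP+ arrays against 13.6 to 14.6 on GFP- arrays, and their part in the immediate early difference was not tested. Without pool 2 or pool 3, 1 immediate early gene was higher.

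Cytosolic ribosomal protein genes were lower as well, 57 of 64, with a median of -0.90 and 28 past 2-fold. Rplp0 was lower by 1.98 (SE 0.13) and Rps16 by 1.73 (SE 0.14). The list median was negative in every setting run, at -1.20 to -0.55. Oxidative phosphorylation genes stayed at the all-gene median, with 0.17 over 84 genes; 13 were higher and 4 lower, both below the 25% and 15.6% of all genes, and their median changed sign with arrays shifted to a common vomeronasal median. Leaving out a pool left 4 to 8 higher. Unfolded protein response genes had a median of 0.01, with Atf5 (0.43) and Dnajb9 (0.39) higher and Xbp1 (-0.56, SE 0.09) lower, and this median too changed sign with the scaling. Without pool 3 neither Atf5 nor Dnajb9 passed (adjusted p = 0.0557 and 0.0619).

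The S100 genes on chromosome 3 lie side by side and pointed in opposite directions. S100a5 sits between S100a4 and S100a6 in the annotation. S100a6, expressed in many dividing and stromal cells, measured 6.77, 6.63, 6.97 and 6.69 in GFP+ cells, against 9.24, 8.94, 10.13 and 10.72 in GFP- cells, 3.00 lower (SE 0.34, adjusted p = 7.54e-05). S100a4, an S100 gene of motile and myeloid cells, was lower by at least 2.45. S100a13, the only other member of the cluster that was higher and above the vomeronasal level, differed by 0.63 (SE 0.15), while S100a14, S100a16, S100a3, S100a2, S100a7a and S100a7l2 lay at that level in both fractions. S100a11 and S100a10, farther along the chromosome, were lower by 5.97 and by at least 3.18. S100a1, at the vomeronasal level in GFP+ cells, was lower by at least 0.56 (adjusted p = 0.00529), with overlap between fractions. The list of 26 neuronal calcium-binding genes also holds S100 genes of other cells, such as S100a6. Of the 26, 9 were higher and 6 lower, and all 6 lower ones were Calb2 and S100 genes. The neuronal calcium-sensor genes Necab1 (1.42, SE 0.15), Hpcal4 (1.00) and Ncs1 (0.89) were higher.

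**Figure D4:**
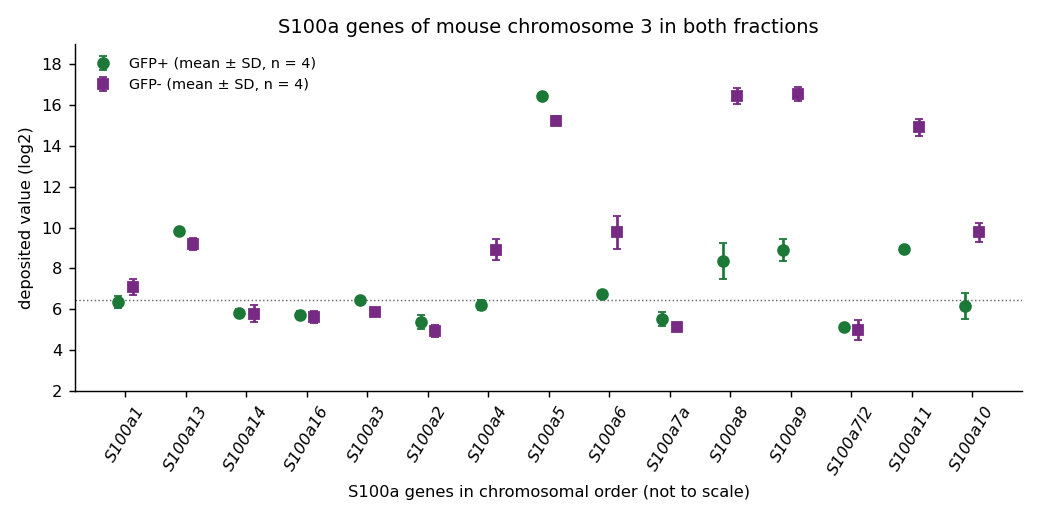
Mean log2 value with SD over 4 arrays of 15 S100a genes of mouse chromosome 3, in chromosomal order and not to scale, with GFP+ cells (circles) left of GFP- cells (squares); the dotted line is the vomeronasal level of GFP+ cells. S100a5 and S100a13 are higher in GFP+ cells, and S100a1, S100a4, S100a6, S100a8, S100a9, S100a11 and S100a10 are higher in GFP- cells.

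Odorant receptors spread widely over the sort, to both sides. Of 1080, 485 were higher and 191 lower by 2-fold, 62.6% in all, against 12.9% of all genes by that rule. Among genes above the vomeronasal level in at least 1 fraction, 66.9% of odorant receptors and 14.5% of genes that are no chemoreceptor passed the 2-fold rule. Odorant receptor differences ran from -2.46 at the 10th percentile to 2.73 at the 90th. Those of 319 vomeronasal receptors ran from -0.03 to 0.58, with 57 higher and 2 lower and none called by 2-fold. As 303 of the 319 lay at the level they define in both fractions, their narrow spread is no measure for expressed receptors. A total of 17 receptors were higher and 41 lower by 16-fold or more. Olfr536 measured 14.73, 14.72, 14.56 and 14.41 in GFP+ cells, against 9.45, 9.05, 9.46 and 8.86 in GFP- cells, so this receptor was 5.40 higher (SE 0.21, 42.1-fold, adjusted p = 4.84e-08). At the other end, Olfr1507 measured 7.61, 8.08, 8.26 and 7.29 in GFP+ cells, against 14.15, 14.12, 14.21 and 13.70 in GFP- cells, 6.24 lower (SE 0.17, 75.5-fold, adjusted p = 7.25e-09). The next rises were Olfr110 (4.83), Olfr481 (4.78), and Olfr613 and Olfr1132 (at least 4.29 and 4.24), and the next falls Olfr1406 (-5.82), Olfr390 (-5.76), Olfr1384 (-5.72) and Olfr1322 (-5.56). Probes of closely related receptors may share signal, which was not tested.

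**Figure D5:**
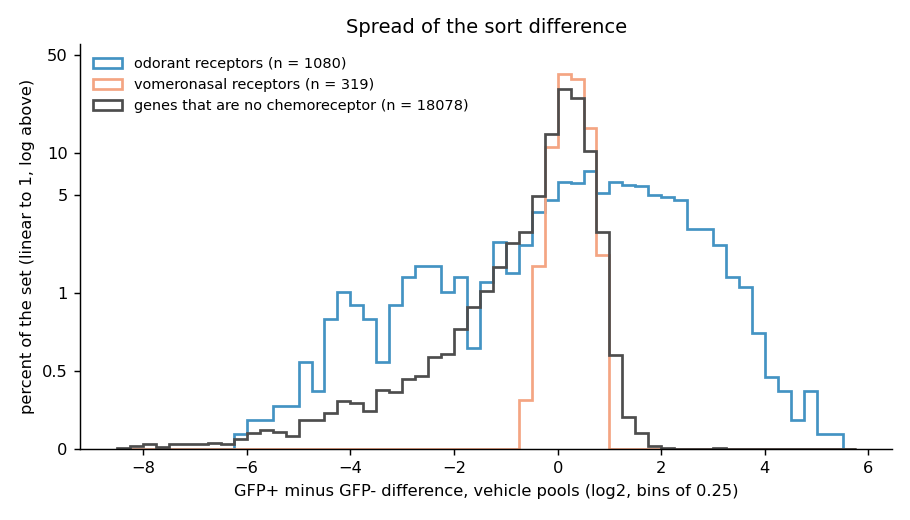
Share of odorant receptors, vomeronasal receptors and genes that are no chemoreceptor in bins of 0.25 of the GFP+ minus GFP- difference (vertical axis linear up to 1% and logarithmic above). Odorant receptors reach far to both sides, and other genes have a long tail only toward GFP- cells. Vomeronasal receptors, most of them at the vomeronasal level in both fractions, stay near 0.

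Trace amine-associated receptors, a small family of olfactory amine receptors, also divided. Of 15, 8 were higher and 5 lower, against 25% and 15.6% of all genes; by 2-fold 5 were higher and 3 lower, against 3.39% and 9.55%. Taar4 was higher by 2.87 (SE 0.21) and Taar9 by 2.21 (SE 0.30). Taar2 measured 6.96, 7.51, 8.70 and 8.64 in GFP+ cells, against 10.10, 11.16, 10.52 and 11.21 in GFP- cells, 2.79 lower (SE 0.33, adjusted p = 9.03e-05). Without pool 2, 3 Taar genes were lower, and with arrays shifted to a common vomeronasal median 5 were higher. Of 12 genes of GC-D neurons, a separate neuron class, 6 were lower, 5 of them by 2-fold. Pde2a, the cyclic GMP-stimulated phosphodiesterase of these neurons, measured 7.76, 7.93, 8.40 and 8.21 in GFP+ cells, against 11.73, 11.79, 12.21 and 12.44 in GFP- cells (-3.96, SE 0.12, adjusted p = 1.26e-08). The carbonic anhydrase gene Car2, also known from red blood cells, was lower by 1.53 (SE 0.21), and the other 4 were Ms4a genes such as Ms4a6c (-3.71), which are also known from myeloid cells. The guanylyl cyclase gene Gucy2d and the channel gene Cnga3, which define the class, were at the vomeronasal level in both fractions.

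The sort was also read in the pools given smoke odour, with the spread estimated over both exposures. Of the 661 genes higher by 2-fold in clean air, 465 were also called higher by 2-fold after smoke. Of the 1863 lower ones 1618 were also called lower by 2-fold, while 8 were called higher after smoke at an adjusted p of at most 0.05. Over all 19505 genes, 2280 (11.7%) were called by 2-fold either way after smoke. The sort difference itself differed between exposures for 35 genes (0.179%). Fxyd2 differed by 2.99 after smoke and 3.15 in clean air, S100a5 by 1.15 and 1.21, Fos by -4.03 and -4.36, and S100a8 by -7.55 and -8.06.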

How the data were processed

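Log2 expression values of 16 Clariom S mouse arrays were used as deposited by the authors. The submitters' processing notes name Affymetrix Expression Console; version, algorithm and annotation were not given in the sources used here. Over all probe sets, once sorted, the values of any 2 arrays lay within 0.346 of each other. The title and labels name cigarette smoke and were followed, although the series text names another odour, bourgeonal, for the treated mice.

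Of 28846 probe sets, 9274 without exactly 1 gene symbol were left out, and 19505 genes remained, with the probe set of highest mean over 16 arrays kept per gene (55 genes had several). In R 4.3.3, limma 3.58.1 (lmFit, eBayes) was fitted to all 16 arrays with the pool as a fixed block and a GFP+ minus GFP- term for each exposure. Vehicle GFP+ minus vehicle GFP- was tested two-sided with Benjamini-Hochberg adjustment over all genes at 0.05, alone or with an absolute log2 difference of at least 1. The pairing follows from 24 mice in pools of 3. As a check, residuals of same-numbered vehicle arrays correlated at 0.214, 0.0822, 0.0453 and 0.196, and those of other pairs at -0.155 to 0.0727. A bound is the distance from the other fraction with values under the vomeronasal level raised to it.

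The members and lists were chosen with earlier results of these data known. Genes were named by rule: S100a5, Omp, Pcp4l1, Calb2 and S100a8; the 15 largest rises and falls outside the chemoreceptors and the 5 largest within them, among called genes with 4 pools of the same sign and no overlap; and up to 4 rises and 4 falls from each list, or the 2 smallest p. Other list members are named to show those that did not follow, chosen after their values were seen. Alternatives were other scalings, a filter on low values, other variance settings, a model without pools, vehicle arrays alone, and leaving out each pool. Promoter windows came from RefSeq and were matched by symbol. Plots were made in matplotlib 3.10.9 (Python 3.11.15).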

Additional observations from a re-analysis of the deposited data

Results flagged for a closer look

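In groups of 4 arrays, 1 array stood apart from the other 3 in several of the 164 named genes. Chance alone marks about 1 in 20 such groups. As every named gene was looked at in both fractions, many marks can arise by chance, and those below were not tested against that rate. In GFP+ cells, pool 1 was low for Caly (9.25) and Bpifa1 (8.73) and high for Cdk1 (3.48), pool 2 was low for Ndufv3 (10.5), pool 3 was high for Glyat (7.41) and Rac2 (6.685), and pool 4 was high for S100a9 (9.72) and Pecam1 (6.44) and low for Cbx5 (10.1). The GFP+ means of Cdk1, Glyat, Rac2 and Pecam1 did not exceed the vomeronasal level. In GFP- cells, pool 3 was high for Hs3st1 (9.88) and low for Rtp2 (15.1). Pool 4 was high in GFP- cells for Chil3 (16.7), Itga6 (9.01), Cdk1 (7.70) and Cd79a (13.6), and low for Olfr1384 (12.99) and Pde4a (14.1).

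The Y-linked genes were low in pool 1 of both fractions: Kdm5d at 4.87 in GFP+ and 5.09 in GFP- cells, against 8.53 to 9.51 in the other pools, and Uty at 3.64 in GFP+ and 4.07 in GFP- cells.

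The sort difference of 2 named receptors differed between exposures in the interaction test of limma. Taar2 was 0.78 higher in GFP+ cells after smoke and 2.79 lower in clean air, a difference of 3.58 between exposures (adjusted p = 0.0157). Taar7f was 1.52 higher after smoke and 0.66 lower in clean air, a difference of 2.18 (adjusted p = 0.0101).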

How the results depend on the processing

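Counts depended on the scale of the arrays, those by 2-fold included. Of 164 genes named by rule, 143 to 164 kept their direction and their side of the threshold under each alternative run. With no replicate block 4728 genes were higher and 2998 lower, 658 and 1856 by 2-fold, so the pairing moved no count over all genes by more than 1.5 times. Counts outside 1.5 times the reported one follow, with the reported count in brackets. With arrays centred on the gene median, the higher counts became 12992 for all genes (4873 before), 15 for transduction (8), 14 for mature neuron (9), 1 for activity-lowered (0), 8 for immature neuron (2), 4 for horizontal basal (0), 1 for sustentacular (0), 4 for gland (1), 6 for ensheathing (1), 1 for B lymphocyte (0), 1 for T and natural killer (0), 5 for endothelial (0), 5 for GC-D neuron (0), 5 for immediate early (0), 24 for axon sorting (15), 9 for zone (4), 14 for receptor choice (6), 19 for calcium-binding (9), 21 for potassium channel (13), 9 for stress (2), 1 for sex-linked (0), 219 for vomeronasal (57), 4 for ribosomal (1) and 75 for oxidative phosphorylation (13); the lower counts became 0 for axon sorting (2), 1 for zone (2), 1 for receptor choice (2), 0 for vomeronasal (2) and 1 for oxidative phosphorylation (4); the higher counts by 2-fold became 1713 for all genes (661 before), 3 for transduction (0), 9 for axon sorting (4), 5 for calcium-binding (3), 5 for presynaptic (2), 7 for potassium channel (3), 2 for cilia (0), 15 for vomeronasal (0) and 1 for oxidative phosphorylation (0); the lower counts by 2-fold became 0 for horizontal basal (1), 2 for sustentacular (4), 4 for gland (8), 0 for ensheathing (1), 1 for trace amine receptor (3) and 14 for ribosomal (28). With arrays shifted to a common vomeronasal median, chosen after seeing the data, the higher counts became 1209 for all genes (4873 before), 3 for transduction (8), 0 for mature neuron (9), 0 for immature neuron (2), 0 for gland (1), 0 for ensheathing (1), 1 for zone (4), 0 for receptor choice (6), 5 for calcium-binding (9), 4 for presynaptic (15), 6 for potassium channel (13), 2 for cilia (17), 0 for stress (2), 5 for trace amine receptor (8), 2 for vomeronasal (57), 0 for ribosomal (1) and 1 for oxidative phosphorylation (13); the lower counts became 4730 for all genes (3048 before), 4 for horizontal basal (2), 6 for receptor choice (2), 3 for potassium channel (1), 6 for stress (1), 4 for vomeronasal (2) and 10 for oxidative phosphorylation (4); the higher counts by 2-fold became 1 for presynaptic (2); the lower counts by 2-fold became 2 for horizontal basal (1), 7 for sustentacular (4), 2 for ensheathing (1), 5 for endothelial (3), 2 for axon sorting (0), 2 for zone (1) and 46 for ribosomal (28). With trended and robust variances, the higher counts became 4 for immature neuron (2) and 25 for oxidative phosphorylation (13); the lower counts became 1 for vomeronasal (2). After quantile normalization, the higher counts became 1 for sustentacular (0), 3 for ensheathing (1), 2 for GC-D neuron (0) and 3 for receptor choice (6); the lower counts became 1 for axon sorting (2), 1 for zone (2) and 2 for oxidative phosphorylation (4); the higher counts by 2-fold became 5 for calcium-binding (3), 1 for presynaptic (2) and 1 for vomeronasal (0); the lower counts by 2-fold became 0 for ensheathing (1) and 1 for trace amine receptor (3). With a filter on low values, the higher counts became 0 for gland (1), 4 for vomeronasal (57) and 20 for oxidative phosphorylation (13); the lower counts became 0 for vomeronasal (2). With no replicate block, the higher counts became 0 for ensheathing (1), 1 for immediate early (0), 2 for zone (4) and 0 for ribosomal (1); the lower counts became 1 for zone (2) and 0 for vomeronasal (2); the lower counts by 2-fold became 5 for gland (8). With the vehicle arrays alone and the replicate block, the higher counts became 0 for ensheathing (1) and 1 for GC-D neuron (0); the lower counts became 1 for vomeronasal (2). Leaving out each pool in turn, the higher counts ranged over 3196 to 3956 for all genes, 5 to 7 for transduction, 1 to 2 for immature neuron, 0 to 1 for sustentacular, 0 to 1 for gland, 0 to 1 for ensheathing, 0 to 1 for immediate early, 2 to 3 for zone, 2 to 5 for receptor choice, 0 to 3 for stress, 27 to 50 for vomeronasal, 0 to 1 for ribosomal and 4 to 8 for oxidative phosphorylation; the lower counts ranged over 1 to 2 for axon sorting, 1 to 2 for zone, 1 to 2 for potassium channel, 3 to 5 for trace amine receptor, 0 to 1 for vomeronasal and 2 to 4 for oxidative phosphorylation; the higher counts by 2-fold ranged over 1 to 2 for presynaptic, 0 to 1 for cilia and 1 to 2 for vomeronasal; the lower counts by 2-fold ranged over 4 to 10 for gland, 0 to 1 for ensheathing, 0 to 1 for axon sorting and 1 to 3 for trace amine receptor. Of single genes, Omp changed sign after quantile normalization (-0.0352) and with the common vomeronasal median (-0.21), as did Kdm5d (-0.0890) and Uty (-0.0182) with the common median. In arrays centred on the gene median, Omp (0.44) and Kdm5d (0.56) passed as higher (limma adjusted p = 0.00211 and 0.0304). Centring and the common vomeronasal median each add a constant to an array; for the other settings the cause was not tested. The log2 values carry no detection calls, and low genes are limited by the vomeronasal level.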
